A study of Mus musculus with 12 samples.

Results

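The 53 genes described here encode the proteins that prepare replication origins and copy DNA in mouse cells. They were chosen by symbol, as members of the origin recognition complex, the licensing factors, the MCM helicase ring and its activators, the replicative polymerases, the clamp and its loader, and the proteins that protect and finish the fork. All 53 were found among 26301 genes in the deposited count table, and all 53 were among the 13882 genes that passed the filter on low counts. RNA was sequenced from 12 adult mouse livers or liver tumors, 4 in each of 3 groups. The controls were non-tumor livers of wild-type mice. The libraries labelled DKO came from spontaneous liver tumors of mice with the genotype Alb-Cre E2f7 E2f8 knockout, and those labelled TKO from such tumors in animals that lacked Rb1 as well. Cre was driven by the albumin promoter, which the study describes as specific to hepatocytes. Which other cells of the liver kept the genes was not measured here. The mice were bred into FVB and the tissue was taken at humane end points in a study of ageing animals, and no wild-type tumor or non-tumor knockout liver was analysed here, so that genotype and tumor state cannot be told apart in a comparison with the controls. DKO and TKO below are the names on the labels.

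Licensing is the loading of the MCM helicase onto origins. The origin recognition complex binds the DNA, Cdc6 and Cdt1 bring the ring of Mcm2 to Mcm7, and geminin (Gmnn) holds Cdt1 back after S phase has begun. The kinase Cdc7 with its activator Dbf4, together with Cdc45, the GINS complex, Mcm10 and treslin (Ticrr), then turns the loaded ring into a running helicase that polymerases alpha, delta and epsilon follow. Many of these genes are known targets of E2F transcription factors, which RB binds and which the atypical members E2F7 and E2F8 oppose. Most hepatocytes of an adult liver are quiescent, and the tumors pose the question of how far this machinery is expressed without E2F7 and E2F8, and without RB in addition.

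Total counts ranged from 9165812 to 16424973 per library, and 8 of the 53 genes (Orc1, Cdc6, Cdc45, Gins2, Ticrr, Cdc7, Pole2 and Clspn) had fewer than 10 counts in at least 1 library, so their values carry a large counting error. Values are given as CPM, counts scaled to a common library total after TMM normalization. Rb1 stood at 3.204 to 5.47 CPM in TKO and at 6.51 to 11.3 CPM in the other 8 libraries, with no overlap. Against control, E2f7 (4 to 24 counts per library) had a log2 fold change of 0.49 in DKO and -0.01 in TKO, and E2f8 (4.52 to 52.2 CPM) of 1.72 and 2.08. Since counts over a whole gene do not separate deleted from retained exons, they do not check that deletion. Hepatocyte markers were abundant in every library (summed level 46800 to 309600 CPM for 7 markers). The 6 cholangiocyte markers summed to 30.6 to 52.1 CPM in controls, 74.7 to 122 CPM in DKO and 33.0 to 63.8 CPM in TKO. Of the 5 that were tested, edgeR's test called 1 (Prom1) higher in DKO, where 1.41% of all genes were called higher. Prom1 had 16 to 48 counts per library in controls and 178 to 854 in DKO. Of the 5, its DKO values alone lay above all controls, beside 8.87% of all genes. In DKO 4, Prom1 made most of the sum, with 854 counts beside 56 for Krt19, 2 for Krt7, 116 for Epcam, 39 for Sox9 and 201 for Spp1. In DKO 3, Spp1 had the most, with 1314 counts. The higher DKO sum therefore does not describe the 6 markers alike. Over all libraries, endothelial markers summed to 111.5 to 286 CPM and macrophage markers to 127 to 666 CPM. Stellate and fibroblast markers summed to 160 to 577 CPM, and those of B and plasma cells to 3.83 to 56.5 CPM. Markers of T and NK cells summed to 1.53 to 8.30 CPM, and those of neutrophils to 1.64 to 10.3 CPM, and Cd3d, Cd2 and Ly6g were each at 0 in 1 library. Their part in the results below was not tested, and in bulk tissue fewer cells of a type and less RNA per cell cannot be told apart.

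Most of the replication genes had a higher mean in the tumors than in the controls, but few of these differences passed a test adjusted over all genes. In DKO against control, 40 of the 53 genes had a log2 fold change above 0, against 51.6% of all genes tested, and the median of the 53 was 0.53 beside 0.02 over all genes. edgeR's quasi-likelihood test with Benjamini-Hochberg adjustment over all genes called 1 gene higher (Dbf4, adjusted p = 0.0469), where 1.41% of all genes were called higher, and 1 lower (Mcm10, adjusted p = 0.0352), where 1.01% were called lower. At an unadjusted p under 0.05 there were 8 higher and 2 lower genes, beside 12.9% and 11.1% of all genes. The 4 DKO values lay above all 4 control values for 5 genes (Cdc7, Dbf4, Pold3, Prim2 and Rfc3), beside 8.87% of all genes, and below them for Mcm10 and Rpa3, beside 7.3%. DESeq2 called 3 of the 53 higher (Dbf4, Lig1 and Uhrf1), beside 5.7% of the genes it tested, and Mcm10 lower, beside 4.75%.

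In TKO against control, 46 of the 53 genes had a log2 fold change above 0, against 52.5% of all genes, with a median of 0.75 beside 0.02. None passed the adjusted threshold in edgeR's test in either direction, where 0.0504% of all genes were called higher and 0.036% lower, and the lowest adjusted p was 0.0989 for Prim1. At an unadjusted p under 0.05, 19 genes were higher and 2 (Mcm10 and Orc3) lower, beside 9.94% and 6.33% of all genes. DESeq2 called 3 of the 53 higher (Cdt1, Lig1 and Prim1), beside 2% of the genes it tested, and 0 lower, beside 1.49%. The 4 TKO values lay above all controls for 6 genes (Cdt1, Pold3, Pole2, Prim1, Prim2 and Rfc2), beside 4.38% of all genes, and below them for none, beside 3.29%. Both tumor groups were compared with the same 4 control livers, so the 2 comparisons are not independent of each other.

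With the 2 tumor groups averaged, edgeR's test called Dbf4 higher (log2 fold change 1.35, adjusted p = 0.0468) and Mcm10 lower (-1.39, adjusted p = 0.0406) than in controls, beside 1.25% and 1.22% of all genes. With 1 library left out in turn, the call of Dbf4 was lost in 10 of 12 fits, all but those without DKO 3 or TKO 3, and that of Mcm10 in 9, all but those without DKO 3, TKO 3 or TKO 4. The median over the 53 genes was 0.64, with 46 above 0 (52.1% of all genes), and at an unadjusted p under 0.05 there were 20 higher and 2 lower genes (12.8% and 10.2% of all genes). All 8 tumors lay above all 4 controls for Pold3, a subunit of polymerase delta, and Prim2, the large subunit of primase, beside 2.2% of all genes, and none of the 53 lay below all controls, beside 1.46%. DESeq2 called 6 genes higher (Cdt1, Chaf1b, Dbf4, Lig1, Prim1 and Uhrf1), beside 5.43% of its genes, and Mcm10 lower, beside 4.06%. Between the tumor genotypes, edgeR called 0 of the 53 genes, beside 0% of all genes in each direction, with 7 higher in TKO and 1 lower at an unadjusted p under 0.05 (5.16% and 3.84% of all genes), and DESeq2 also called 0 of the 53, beside 0.171% and 0.227%.

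**Figure D1:**
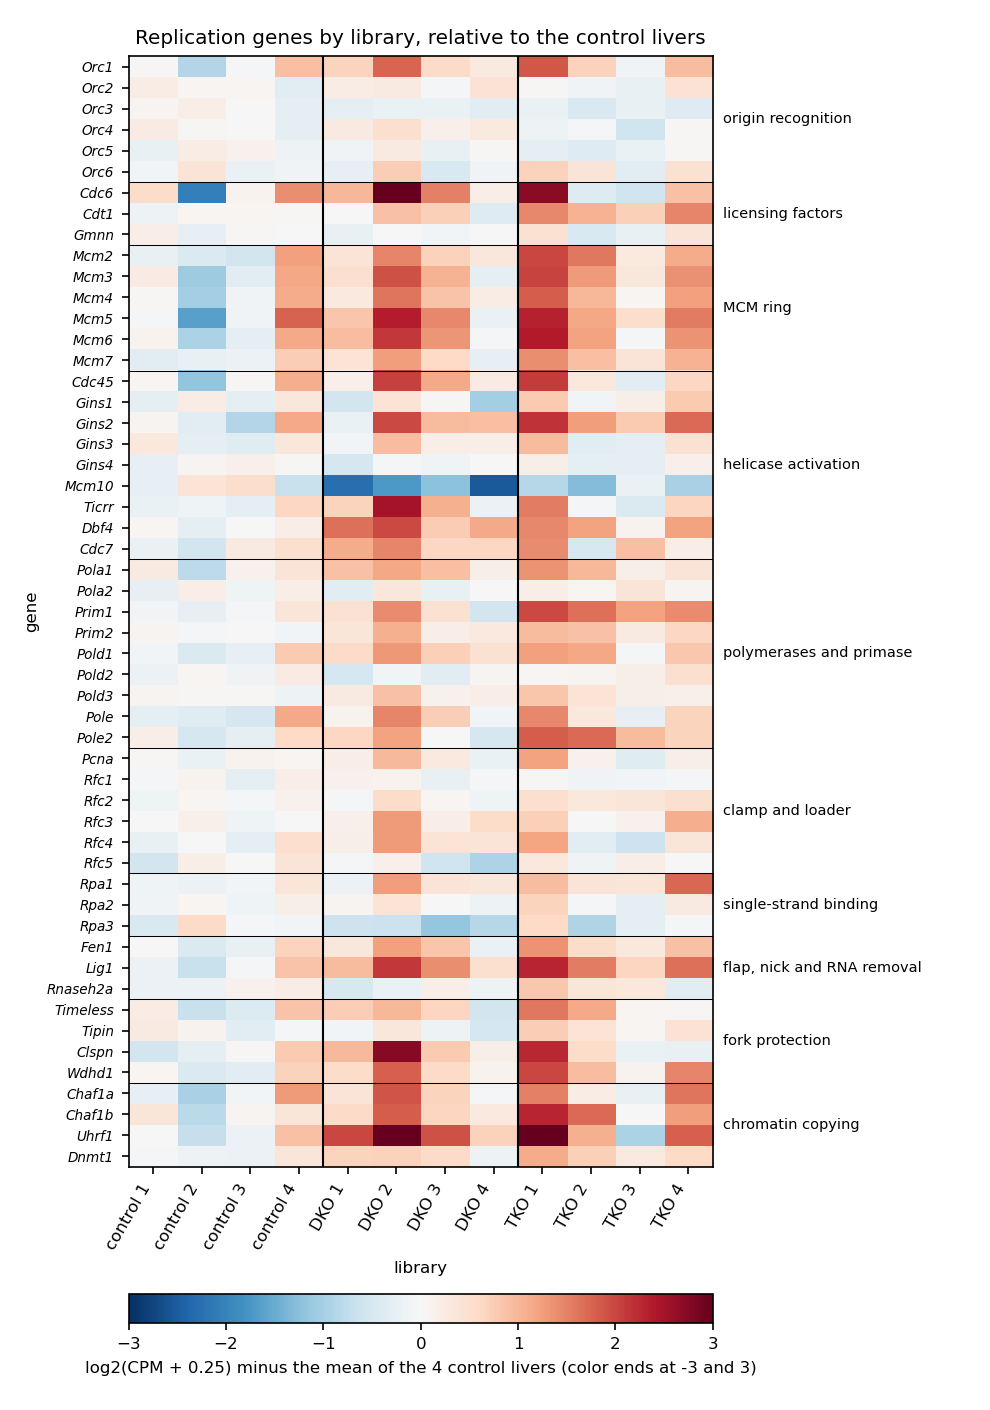
Color shows log2(CPM + 0.25) of each of the 53 replication genes (vertical axis, in 10 roles) in each of the 12 libraries (horizontal axis), minus the mean of the 4 control livers. DKO 2 and TKO 1 are red for most genes, control 4 is redder than the other controls, and Mcm10 runs blue in the tumors.

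The libraries of a group differed from each other across many of the genes at once. DKO 2 had the highest value of the DKO libraries for 46 of the 53 genes, and TKO 1 the highest of the TKO libraries for 42. DKO 4 was the lowest of its group for 33 genes, and TKO 3 the lowest of its group for 33. Among the controls, control 4 was the highest for 38 genes and control 2 the lowest for 23. The coefficient of variation between the 4 libraries of a group had a median over the genes of 30.1% in control, 40.6% in DKO and 36.4% in TKO.

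The origin recognition complex, which marks origins throughout the cell cycle, held close to the control level apart from its regulated subunit Orc1. Orc1 measured 0.444, 0.123, 0.406 and 1.02 CPM in controls, 0.842, 2.05, 0.768 and 0.589 CPM in DKO, and 2.23, 0.852, 0.383 and 1.04 CPM in TKO, on 1 to 37 counts per library. The groups overlapped, and the log2 fold change of tumors against control was 1.06 ± 0.57 (SE, n = 8 and 4). The lowest change of the role was that of Orc3, at -0.29 ± 0.11 with unadjusted p = 0.0157 and adjusted p = 0.125 in edgeR's test. Orc4 was the only gene of the 53 without overlap between the tumor groups, where 2.75% of all genes were higher and 2.12% lower in TKO without overlap. It measured 20.3, 23.7, 18.7 and 20.6 CPM in DKO against 15.1, 16.1, 11.03 and 17.1 CPM in TKO, a log2 fold change of -0.49 ± 0.16 with adjusted p = 0.45.

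Of the licensing factors, Cdt1 was the one whose TKO values stood clear of the controls. Cdt1, which loads the MCM ring, measured 3.48, 4.05, 4.06 and 3.95 CPM in controls, 3.91, 7.35, 6.499 and 2.89 CPM in DKO, and 11.02, 8.31, 6.51 and 11.1 CPM in TKO. The TKO values began above the highest control, while DKO reached from below the lowest control to within the TKO range. Against control the log2 fold change was 1.25 ± 0.29 in TKO (adjusted p = 0.118 with edgeR's test, 0.00822 with DESeq2) and 0.41 ± 0.29 in DKO (adjusted p = 0.419). TKO against DKO gave 0.84 ± 0.28 (unadjusted p = 0.0113, adjusted p = 0.46).

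Gmnn, the inhibitor of Cdt1, had a log2 fold change of -0.08 ± 0.21 in DKO and 0.09 ± 0.21 in TKO. It measured 9.04, 6.63, 8.06 and 7.90 CPM in controls, 6.74, 7.98, 7.39 and 7.89 CPM in DKO, and 10.9, 5.68, 6.74 and 10.3 CPM in TKO, with overlap between all 3 groups. The log2 ratio of Cdt1 to Gmnn (prior count 2) was -1.34, -0.69, -0.96 and -0.97 in controls, -0.77, -0.12, -0.18 and -1.41 in DKO, and 0.02, 0.54, -0.05 and 0.11 in TKO. Every TKO ratio exceeded every ratio of the other 8 libraries. A two-sided exact permutation test over libraries gave a difference of 1.15 for TKO against control (p = 0.0286, adjusted over 3 tests 0.0429), of 0.77 for TKO against DKO (p = 0.0286, adjusted 0.0429) and of 0.37 for DKO against control (p = 0.286). The smallest p that 4 against 4 libraries allow is 0.0286, and since the pair was chosen with earlier results of these data known, this is not independent evidence.

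**Figure D2:**
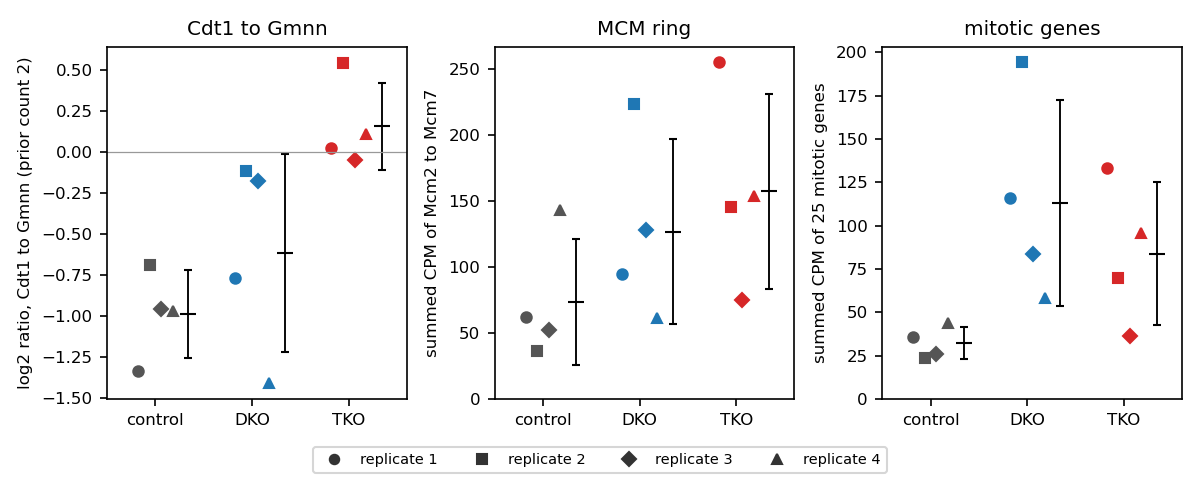
The panels plot, for each library by group, the log2 ratio of Cdt1 to Gmnn, the summed CPM of Mcm2 to Mcm7 and the summed CPM of 25 mitotic genes, with the mean and SD (n = 4) beside the points. The ratio is at or above -0.05 in the 4 TKO libraries and below it in all others, whereas the MCM sums of the 3 groups overlap.

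Cdc6, the partner of Cdt1 in loading the ring, varied widely within each group. It measured 2.00, 0.123, 1.42 and 3.80 CPM in controls, 2.83, 12.1, 4.14 and 1.53 CPM in DKO, and 9.76, 0.923, 0.766 and 2.61 CPM in TKO. DKO 2 and TKO 1 held the highest values, whereas TKO 2 and TKO 3 lay below 3 of the 4 controls. The log2 fold change was 1.44 ± 0.91 in DKO and 0.91 ± 0.91 in TKO, and without TKO 1 the latter was -0.40.

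The 6 subunits of the MCM ring, the helicase that unwinds DNA at the fork, each had a positive log2 fold change in both tumor groups. The changes were 0.53 (Mcm7) to 1.08 (Mcm6) in DKO and 0.91 (Mcm7) to 1.26 (Mcm6) in TKO, with adjusted p between 0.217 and 0.469 in TKO. None of the 6 was called in either tumor group, and 3 of them (Mcm2, Mcm6 and Mcm7) had an unadjusted p under 0.05 in TKO. The CPM of the 6 genes summed to 61.7, 36.4, 52.3 and 143 in controls, to 94.7, 223, 128 and 61.3 in DKO, and to 255, 145, 75.0 and 153 in TKO. Control 4 lay above 3 of the 4 DKO libraries and 1 of the 4 TKO libraries. The highest library of a group exceeded the lowest 3.94-fold in controls, 3.64-fold in DKO and 3.4-fold in TKO, while the ratio of the group means to control was 1.73 for DKO and 2.14 for TKO.

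Mcm6 illustrates the pattern. It measured 13.8, 6.51, 10.4 and 28.7 CPM in controls, 24.6, 56.9, 32.4 and 12.5 CPM in DKO, and 67.3, 30.0, 12.3 and 33.1 CPM in TKO. The lowest library of each tumor group fell among the controls, and control 4 fell among the tumors. Per length (RPKM over the exons of the gene model), the 6 subunits of a ring that holds 1 copy of each differed within a library by a ratio of highest to lowest of 1.68 (DKO 1) to 4.32 (control 2), the other 10 libraries lying between 1.70 and 2.31. Mcm3 was the highest subunit in 9 of the 12 libraries. Between the tumor genotypes the subunits differed by 0.15 to 0.59 on the log2 scale, with SE between 0.33 and 0.66.

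**Figure D3:**
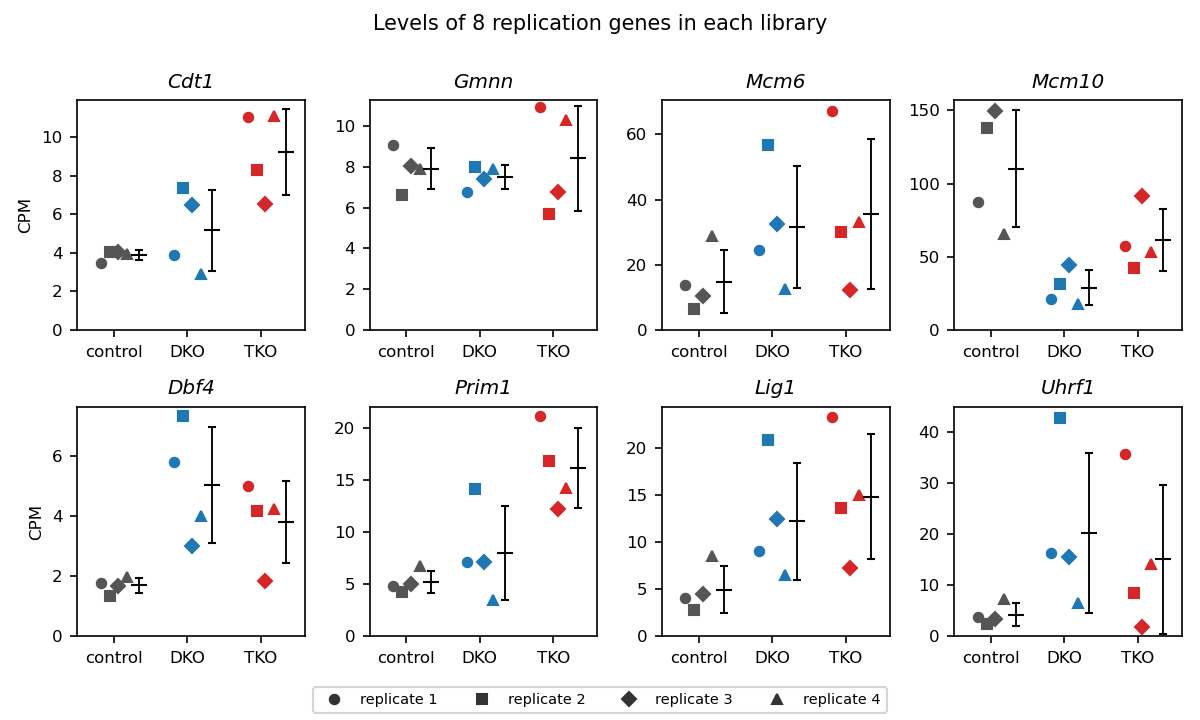
Each panel plots the CPM of 1 gene in the 12 libraries by group, with the mean and SD (n = 4) beside the points, on axes that start at 0. Cdt1 and Prim1 are higher in all TKO libraries than in any control, Mcm10 is lower in all DKO libraries than in any control, and Mcm6, Lig1 and Uhrf1 overlap between groups.

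Promoter windows of the replication genes held E2F words more often than those of other genes. A window covers 250 bases before to 50 bases after an annotated start in RefSeq (GRCm38.p6), and 44 of the 53 genes had one. The words TTTCCCGC, TTTGGCGC, TTTCGCGC and TTTGCCGC were searched on both strands, and they can overlap each other. At least 1 of them was present in 18 of the 44 genes (40.9%), in 9 of 25 further replication genes (36%), in 1 of 22 mitotic genes (4.55%) and in 469 of 10424 tested genes with a window (4.5%). The CHR words TTTGAA and TTCGAA, the element of genes that peak in mitosis, were present in 22.7% of the replication genes, in 77.3% of the mitotic genes and in 16.9% of the tested genes. Median GC content was 61.3% for the windows of the 53 genes and 60.3% for those of tested genes. No window was found for Gins1, Gins2, Gins4, Gmnn, Mcm4, Pole, Prim2, Rfc2 and Tipin.

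**Figure D4:**
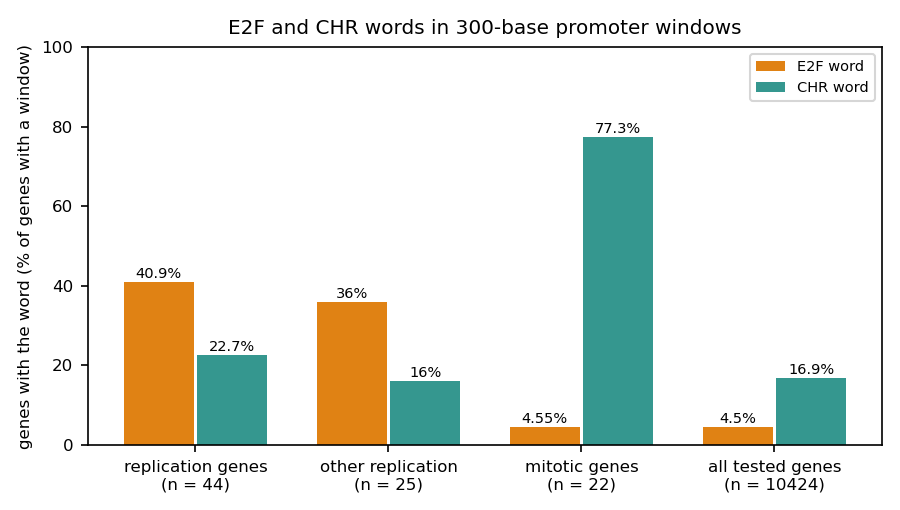
Bars give the share of genes, in percent of those with a promoter window, that hold an E2F word or a CHR word, for the replication genes, further replication genes, mitotic genes and all tested genes. E2F words mark 40.9% of the replication genes and 4.55% of the mitotic genes, and CHR words 22.7% and 77.3%.

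Of the MCM ring, 4 of the 5 genes with a window held an E2F word. Mcm7 has 2 words further apart, beginning 165 bases before and 16 bases after the start, and is not shown. The following stretches hold the most closely spaced words of the ring (Mcm6, Mcm5 and Mcm3) and the word of Cdt1. They also show the contrast with the 2 genes that passed the adjusted test. They are read 5′ to 3′ on the strand of the gene, and capitals mark E2F words or their reverse complements, and in Dbf4 the reverse complement of a CHR word. Mcm6 (250 bases before the start, chr1:128359706-128359955, minus strand) has 3 words, beginning 110, 106 and 47 bases before the start, of which the first 2 overlap. In Mcm5 (chr8:75109259-75109508, plus strand) 2 words overlap, beginning 153 and 149 bases before it. Mcm10 (chr2:5012792-5013041, minus strand) has no complete word of either kind in its window. Past the stretch shown, that window ends in TTTGGCG, the beginning of the E2F word TTTGGCGC, and the base after its edge was not searched. The other 3 are 30-base stretches around the words of Mcm3 (chr1:20820265-20820294, minus strand), Cdt1 (chr8:122568035-122568064, plus strand, 32 bases after the start) and Dbf4 (chr5:8422702-8422731, minus strand, 3 bases before the start). A match describes these letters and is no evidence of binding.
Mcm6: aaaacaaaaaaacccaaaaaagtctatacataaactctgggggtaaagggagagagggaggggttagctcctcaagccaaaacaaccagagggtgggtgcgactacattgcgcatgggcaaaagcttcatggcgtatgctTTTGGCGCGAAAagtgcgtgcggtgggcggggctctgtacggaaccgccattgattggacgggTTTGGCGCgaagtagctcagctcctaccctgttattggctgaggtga
Mcm5: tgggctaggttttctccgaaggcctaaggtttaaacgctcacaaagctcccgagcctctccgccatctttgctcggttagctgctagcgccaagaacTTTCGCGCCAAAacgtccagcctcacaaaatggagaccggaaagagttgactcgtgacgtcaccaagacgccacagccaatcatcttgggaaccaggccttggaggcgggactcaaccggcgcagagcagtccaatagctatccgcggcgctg
Mcm10: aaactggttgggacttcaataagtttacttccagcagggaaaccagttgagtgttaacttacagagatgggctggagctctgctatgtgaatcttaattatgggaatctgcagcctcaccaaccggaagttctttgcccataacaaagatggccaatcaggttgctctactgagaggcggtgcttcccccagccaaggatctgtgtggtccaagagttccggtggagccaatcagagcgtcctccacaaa
Mcm3: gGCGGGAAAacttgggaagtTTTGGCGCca
Cdt1: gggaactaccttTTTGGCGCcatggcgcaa
Dbf4: gcgtgacgcgttTTCAAAtctttaaccgcc

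The 18 genes with an E2F word had a median log2 fold change of 0.77 in DKO and 0.97 in TKO against control, with 17 above 0 in each. The 26 genes with a window and no word had medians of 0.41 and 0.38, with 18 and 21 above 0. Between the tumor genotypes the medians were 0.09 with a word and 0.21 without. The ranges overlapped widely, from -0.26 to 2.23 with a word and from -1.93 to 1.80 without in DKO, and the difference between these groups of genes was not tested.

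Among the activators of the helicase, Dbf4 and Mcm10 moved in opposite directions, and these were the only 2 of the 53 genes past the adjusted threshold of edgeR's test in DKO or in all tumors. Dbf4, the activating subunit of the Cdc7 kinase, measured 1.78, 1.35, 1.69 and 1.97 CPM in controls, 5.82, 7.35, 3.01 and 4.01 CPM in DKO, and 4.999, 4.19, 1.84 and 4.25 CPM in TKO. Every DKO value exceeded every control, and TKO 3 alone of the tumors fell within the control range. Dbf4 was 2.93-fold higher in DKO than in control (log2 fold change 1.55 ± 0.35, adjusted p = 0.0469) and 2.23-fold the control level in TKO (1.16 ± 0.35, adjusted p = 0.158). The call in DKO stood near the threshold. It was kept without DKO 3, TKO 3 or TKO 4 and lost without any of the other 9 libraries (adjusted p 0.0246 to 0.14), and scaling by total counts alone gave an adjusted p of 0.0628 in edgeR's test.

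Cdc7 itself was scarce, with 1 to 20 counts per library. It measured 0.222, 0.123, 0.406 and 0.512 CPM in controls, 0.919, 1.26, 0.591 and 0.589 CPM in DKO, and 1.21, 0.142, 0.766 and 0.373 CPM in TKO. DKO lay above all controls and TKO overlapped them, with log2 fold changes of 1.31 ± 0.60 (adjusted p = 0.207) and 0.91 ± 0.61 (adjusted p = 0.486).

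Mcm10, which binds the loaded ring and helps to start it, was lower in DKO. It measured 87.4, 138, 149 and 65.7 CPM in controls, 21.5, 31.4, 44.7 and 18.1 CPM in DKO, and 57.7, 42.5, 91.6 and 53.4 CPM in TKO. No DKO value reached the lowest control, and TKO overlapped both groups, TKO 3 lying within the control range and TKO 2 below the highest DKO value. Mcm10 fell 1.93 on the log2 scale in DKO (SE 0.35, adjusted p = 0.0352) to 0.263 of the control level. In TKO its log2 fold change was -0.85 ± 0.34 (adjusted p = 0.247), and TKO exceeded DKO by 1.08 ± 0.34 (unadjusted p = 0.00786, adjusted p = 0.45). The call in DKO was lost without control 2, 3 or 4 or DKO 1, 2 or 4 (6 of 12 libraries left out in turn, adjusted p 0.0177 to 0.126) and at an adjusted p of 0.0528 with scaling by total counts alone, while DESeq2 gave 2.28e-05.

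The level of Mcm10 was unlike that of the helicase it serves. Per length it reached 14.3 RPKM (mean of 4, SD 5.21) in controls, the second highest of the 52 genes with a length and above the 2.84 to 4.44 RPKM of the 6 ring subunits. It supplied 10.5 to 27.7% of the summed CPM of the 53 genes in controls, 3.49 to 7.61% in DKO and 5.91 to 17.1% in TKO. Control 4, which had the highest summed MCM ring of the controls, had the lowest Mcm10. The gene lies at chr2:4910760-4933837 on the minus strand of mm9, and no other annotated gene overlaps it, but counts per gene do not show whether all of these reads came from Mcm10, which limits what its level, share and fold change describe.

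The other activators were not called. Cdc45, part of the running helicase, had a log2 fold change of 0.89 ± 0.58 in tumors, and the GINS subunit Gins3 of 0.32 ± 0.34, while Gins1 stood at -0.23 ± 0.36 in DKO and 0.47 ± 0.35 in TKO. Ticrr, which recruits Cdc45, had log2 fold changes of 1.80 ± 0.81 in DKO (adjusted p = 0.20) and 0.91 ± 0.83 in TKO on 2 to 36 counts per library, and DKO 2 at 2.85 CPM was its highest value. Without DKO 2 its difference between the tumor genotypes turned from -0.89 to 0.06. Gins4, a GINS subunit, measured 9.19 to 13.2 CPM in DKO and 11.04 to 14.6 CPM in controls, with a log2 fold change of -0.10 in tumors. Gins2 overlaps Gse1 on the other strand over 67.3% of its exon bases, and since the strand setting of the counting is not given in the sources used here, its reads cannot be told apart from those of Gse1.

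No polymerase or primase gene was called by edgeR's test, and Prim1, the catalytic subunit of primase, had the highest log2 fold change of the role in tumors (1.11 ± 0.31). It measured 4.89, 4.30, 5.08 and 6.73 CPM in controls, 7.20, 14.2, 7.15 and 3.48 CPM in DKO, and 21.2, 16.8, 12.3 and 14.3 CPM in TKO. All 4 TKO values lay above all controls, whereas DKO 4 lay below them and DKO 2 within the TKO range. The log2 fold change was 1.62 ± 0.35 in TKO (3.06-fold, adjusted p = 0.0989 with edgeR's test and 0.00231 with DESeq2) and 0.60 ± 0.35 in DKO (adjusted p = 0.314), and TKO against DKO gave 1.02 ± 0.34 (unadjusted p = 0.0109, adjusted p = 0.459).

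Prim2 was higher in every tumor by less. It measured 4.30, 3.93, 4.06 and 3.80 CPM in controls, 5.21, 8.69, 4.67 and 5.01 CPM in DKO, and 7.95, 7.60, 4.90 and 6.33 CPM in TKO. Its log2 fold change of 0.64 ± 0.21 in tumors had an adjusted p of 0.0974. Pole2, the second subunit of polymerase epsilon, lay above all controls in TKO at 2.83 to 6.63 CPM, against 1.11 to 2.71 CPM in controls and 1.12 to 4.27 CPM in DKO. Pold2, the second subunit of polymerase delta, had the lowest change of the role, 0.00 in tumors, and lay at 6.66 to 13.6 CPM over all 12 libraries.

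The clamp and its loader had a median log2 fold change of 0.33 in tumors. Pcna, the sliding clamp, measured 19.6, 16.5, 20.5 and 19.9 CPM in controls, 21.8, 37.5, 23.5 and 16.5 CPM in DKO, and 44.2, 20.9, 14.7 and 21.5 CPM in TKO. Of the 8 tumors, 6 stood above all controls, DKO 2 and TKO 1 farthest, while DKO 4 was within and TKO 3 below their range, with a log2 fold change of 0.39 ± 0.28 in tumors. Of the loader subunits, Rfc3 had the highest change in tumors (0.60 ± 0.26, unadjusted p = 0.0378, adjusted p = 0.187) and Rfc5 the lowest (-0.14 ± 0.22). Rfc2 was the most abundant of the 52 genes per length in each group, at 14.6, 15.96 and 19.4 RPKM in control, DKO and TKO, and its TKO values of 27.4 to 31.4 CPM exceeded the controls' 20.3 to 24.1 CPM.

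The 3 subunits of RPA, the trimer that coats single-stranded DNA, had log2 fold changes on both sides of 0. Rpa1 measured 22.5, 21.9, 23.2 and 31.8 CPM in controls, 21.8, 58.7, 32.0 and 31.4 CPM in DKO, and 47.2, 32.2, 31.6 and 81.6 CPM in TKO. Rpa3 measured 3.11, 6.63, 4.26 and 4.10 CPM in controls, 2.76, 2.69, 1.83 and 2.30 CPM in DKO, and 6.69, 2.20, 3.60 and 4.25 CPM in TKO. Rpa3 lay below all controls in DKO, with a log2 fold change of -0.91 ± 0.34 (unadjusted p = 0.019, adjusted p = 0.128), while Rpa1 gave 0.53 ± 0.34 there and Rpa2 0.10 ± 0.20.

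Ligase 1 (Lig1), which seals Okazaki fragments, measured 4.08, 2.83, 4.47 and 8.56 CPM in controls, 9.11, 20.9, 12.5 and 6.54 CPM in DKO, and 23.4, 13.7, 7.28 and 15.1 CPM in TKO. Only DKO 4 and TKO 3 of the 8 tumors lay below the highest control, control 4. The log2 fold change was 1.42 ± 0.40 in tumors (adjusted p = 0.0717 with edgeR's test, 0.00781 with DESeq2). Fen1, the flap nuclease, gave 0.68 ± 0.30, but 78.8% of its exon bases are shared with the lincRNA Gm10143 on the other strand. Rnaseh2a, which removes RNA from DNA, gave 0.09 ± 0.20.

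In the fork protection complex the mediator Clspn showed the highest change in tumors, 1.39 ± 0.73 (adjusted p = 0.275), and Tipin the lowest, 0.17 ± 0.19. Clspn measured 0.370, 0.491, 0.677 and 1.32 CPM in controls, 1.53, 5.77, 1.30 and 0.766 CPM in DKO, and 4.10, 1.07, 0.536 and 0.522 CPM in TKO. DKO 2 and TKO 1 carried the highest values, and 3 TKO and 2 DKO libraries lay among the controls.

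Of the genes that copy chromatin, Uhrf1, which brings the maintenance methyltransferase Dnmt1 to newly copied DNA, had the highest log2 fold change of all 53 in DKO, TKO and tumors. It measured 3.85, 2.33, 3.45 and 7.39 CPM in controls, 16.3, 42.8, 15.4 and 6.48 CPM in DKO, and 35.7, 8.45, 1.92 and 14.2 CPM in TKO. DKO 4 fell below control 4, and TKO 3 below all controls. The log2 fold change was 2.23 ± 0.76 in DKO (4.68-fold, adjusted p = 0.106 with edgeR's test, 0.0214 with DESeq2) and 1.81 ± 0.75 in TKO (adjusted p = 0.26). Without DKO 2 the change in DKO was 1.56, and without TKO 1 that in TKO was 0.92.

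Dnmt1 differed less, with a log2 fold change of 0.59 ± 0.20 in tumors (unadjusted p = 0.0121, adjusted p = 0.111). It measured 10.8, 9.95, 9.68 and 14.2 CPM in controls, 17.6, 17.9, 16.6 and 9.89 CPM in DKO, and 24.3, 18.2, 13.5 and 16.9 CPM in TKO. DKO 4 was among the controls and the other DKO libraries were above them.

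**Figure D5:**
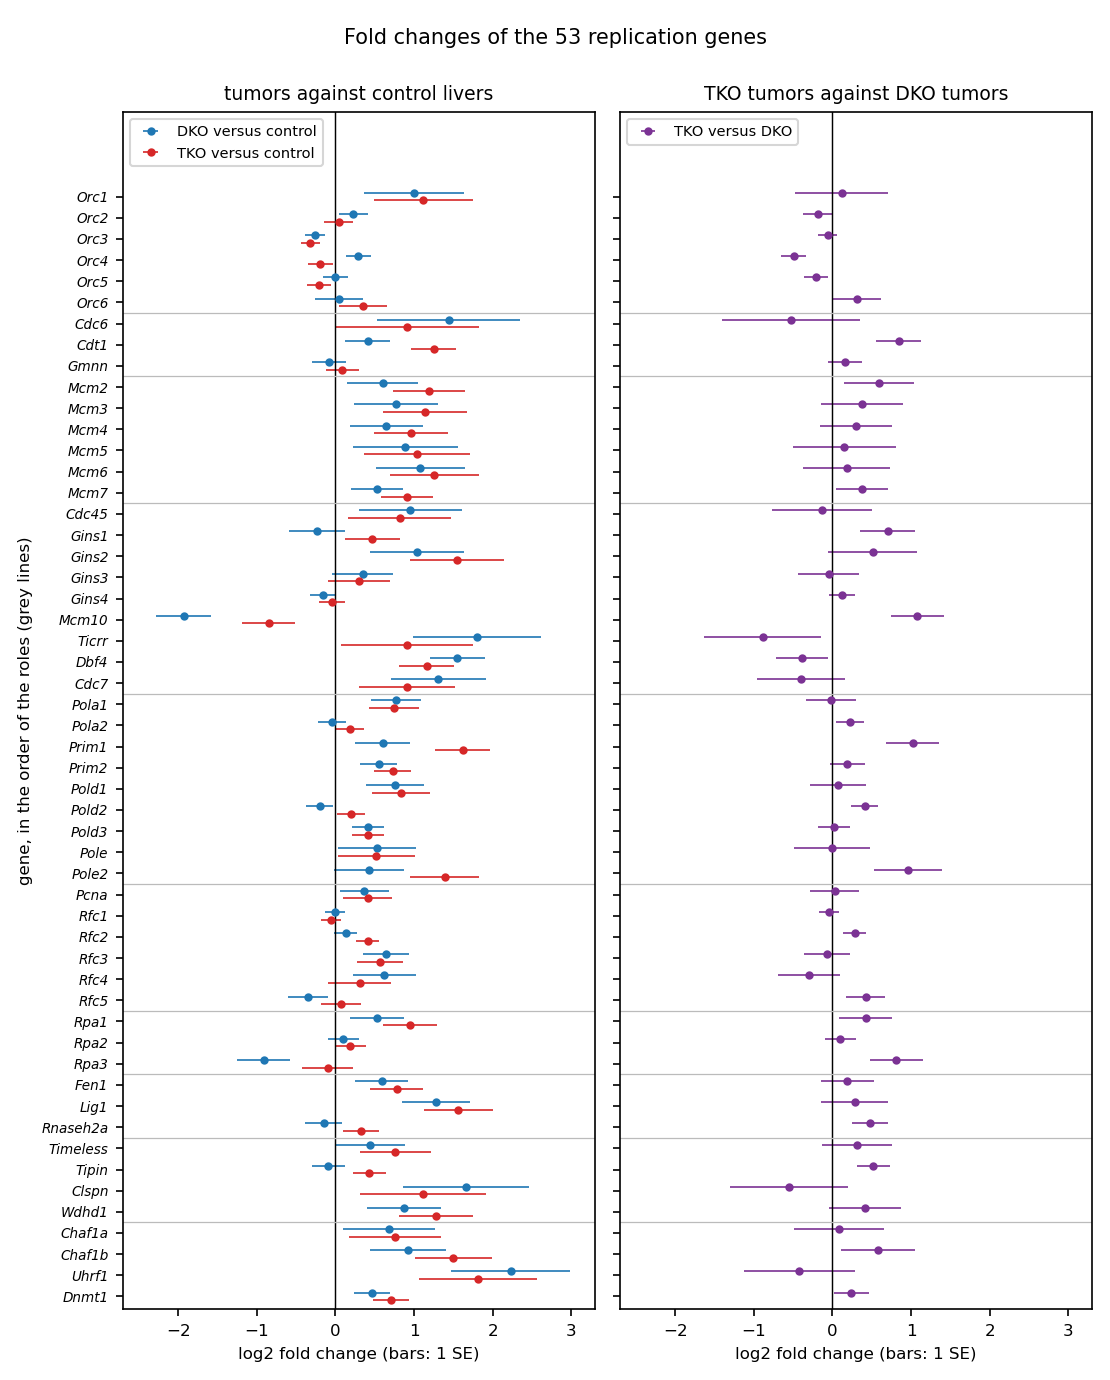
Points give the log2 fold change and bars 1 SE of each replication gene, in the order of the 10 roles, for DKO and TKO against control (left) and TKO against DKO (right). Mcm10 lies farthest below 0 on the left (-1.93 in DKO) and Uhrf1 farthest above (2.23 in DKO), and on the right Mcm10 (1.08) and Prim1 (1.02) lie highest and Ticrr (-0.89) lowest.

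Between the tumor genotypes, the highest differences were those of Mcm10, Prim1 and Pole2 (0.96 ± 0.43, unadjusted p = 0.0452), and the lowest were those of Ticrr, Clspn (-0.55 ± 0.75) and Cdc6 (-0.53 ± 0.88). The median over the 53 genes was 0.18, beside 0.01 over all genes, and 36 were above 0, beside 51.2% of all genes. For Ticrr, Clspn and Cdc6 the sign turned when DKO 2 was left out.

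Other genes of replication and of mitosis give the setting. Of 34 further replication genes none was called in any of the 4 comparisons with edgeR's test, beside at most 1.41% of all genes in either direction. DESeq2 called 1 higher and 1 lower in DKO (Ccna2 and Rnaseh2c), beside 5.7% and 4.75% of the genes it tested. In TKO it called 1 higher (Cdk2), beside 2%, and 0 lower, beside 1.49%. In all tumors it called 1 higher and 1 lower (Ccna2 and Pole3), beside 5.43% and 4.06%. Between the genotypes it called 0, beside 0.171% and 0.227%. At an unadjusted p under 0.05 there were 8 higher and 3 lower in DKO (12.9% and 11.1% of all genes), 10 higher and 1 lower in TKO (9.94% and 6.33%), 9 higher and 2 lower in all tumors (12.8% and 10.2%), and 4 higher and 0 lower in TKO against DKO (5.16% and 3.84%). Their medians against control were 0.31 in DKO and 0.33 in TKO, with Ccna2, the cyclin of S and G2 phase, highest (2.41 and 1.75) and Rnaseh2c (-1.10) and Pole3 (-0.42) lowest, respectively.

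The 25 mitotic genes were further from control than the replication genes. In DKO all 25 had a log2 fold change above 0 with a median of 1.83, and edgeR's test called 5 higher (Bub1b, Mki67, Nuf2, Plk1 and Prc1; 1.41% of all genes) and DESeq2 18 (5.7%), with 20 higher at an unadjusted p under 0.05 (12.9%) and 16 above all controls (8.87%). In TKO the median was 1.31 with 0 called by edgeR's test (0.0504% of all genes), 19 higher at an unadjusted p under 0.05 (9.94%) and 4 called by DESeq2 (2%). Their summed CPM was 23.8 to 43.5 in controls, 58.1 to 194 in DKO and 36.2 to 134 in TKO, so that every DKO library lay above every control, in contrast to the MCM sums. The ratio of the group means to control was 3.5 in DKO and 2.59 in TKO for the mitotic genes, beside 1.73 and 2.14 for the MCM ring. Between the tumor genotypes, 21 of the 25 had a log2 fold change below 0, with a median of -0.53, whereas all 6 genes of the MCM ring were above 0. The sign in the ring depended on single libraries. Without TKO 1, Mcm4 (-0.01), Mcm5 (-0.25) and Mcm6 (-0.33) fell below 0, and without DKO 4 so did Mcm5 (-0.15) and Mcm6 (-0.09). The difference between the mitotic and the replication genes was not tested.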

How the data were processed

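RNA from 4 control livers, 4 DKO tumors and 4 TKO tumors was analysed from the deposited table of raw counts per Entrez gene, 1 column per library, which holds no comparison columns. Per the labels and the study's methods, the authors purified poly(A) RNA, sequenced SOLiD libraries, aligned reads to mm9 with BWA and counted them with featureCounts. Versions, strand setting and the handling of multi-mapping reads are not given in the sources used here. Symbols matched 24191 of 26301 identifiers (99.4% of counts), and gene models came from GENCODE vM1 of the same build (Ticrr had none). Groups came from the sample labels. The study's methods name 4 livers for each condition, so the libraries of a group were treated as separate livers.

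Counts were scaled with TMM, filtered with filterByExpr (13882 genes) and tested with the quasi-likelihood test of edgeR 4.0.16 (R 4.3.3) with all 12 libraries and a mean for each group, adjusted with Benjamini-Hochberg over all genes tested, at 0.05. Each SE of a log2 fold change, in the text and in the figure, was derived from edgeR's test. It is the size of the log2 fold change divided by the square root of the test's F statistic. The study's own tool, DESeq2 1.42.0, was run as an alternative. The Cdt1 to Gmnn ratio used log2 CPM with a prior count of 2. Checked on simulated counts for DKO against control, edgeR recovered 36% of genes changed by 1 and 82% of those changed by 2 on the log2 scale, with 2.5% false calls, and made 0 calls without a change, whereas DESeq2 recovered 59% and 91% with 14.8% false calls and made 12 calls without a change. The changed genes were drawn only from genes above a cut on mean counts. Genes with few counts, such as Cdc7 (1 to 20 counts per library), Ticrr (2 to 36) and Dbf4 (11 to 93), fell below that cut. The recovery rates do not show how often a change in such scarce genes would be called. Every pair of libraries within a group differed by more than sampling noise.

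The 53 genes, the lists of further replication, mitotic and marker genes and the tests were chosen with earlier results of these data known. The erythroid marker list is not reported here. Values were given for genes called in any comparison, the licensing factors, the MCM ring, Mcm10, the 3 highest and 3 lowest changes per comparison, the highest and lowest of each role and the 3 most abundant. Orc4, Cdc7, Pold3, Prim2, Pole2, Rfc2, Gins1, Gins2, Gins3, Gins4, Cdc45, Fen1, Pcna, Rpa2 and Chaf1b were singled out after their values were seen. Alternatives were DESeq2, its size factors, scaling by total counts alone, no filter on low counts, only the compared groups in the fit, the replicate number as a block, a prior count of 0.5 for the ratio, and each library left out in turn. Counts bound the precision of the scarce genes, and depth per library is given with the results.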

Additional observations from a re-analysis of the deposited data

Results flagged for a closer look

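In groups of 4 libraries, 6 of the 159 combinations of gene and group held 1 library whose gap to the nearest other was large for the range of the group (Dixon's criterion), where chance gives about 1 in 20. In 4 of them control 4 was the highest control: Mcm7 at 22.4 CPM (others 10.5 to 11.8), Ticrr at 0.585 CPM (0.203 to 0.246), Pole, the catalytic subunit of polymerase epsilon, at 8.34 CPM (2.5 to 3.04), and Rpa1 at 31.8 CPM (21.9 to 23.2). Control 2 was the highest control for Orc6, at 6.02 CPM beside 3.93 to 4.22 CPM. DKO 4 was the lowest DKO library for Dnmt1, at 9.89 CPM beside 16.6 to 17.9 CPM.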

How the results depend on the processing

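Depth limits the genes with few counts. Of 72 named fold changes, 63 kept their direction under every alternative. With DESeq2, 3 of the 53 genes were called higher in DKO, 3 in TKO and 6 in all tumors, and 1518, 507, 1422 and 56 of all genes in DKO, TKO, all tumors and TKO against DKO, where edgeR called 336, 12, 344 and 0. Scaled by total counts alone, 0 were called higher and 0 lower in DKO and in all tumors (59 and 61 of all genes), the split of higher to lower among all genes was 52 to 7 in DKO, 8 to 1 in TKO and 51 to 10 in all tumors (196 to 140, 7 to 5 and 174 to 170 with TMM), and the median of all genes shifted from 0.02 to 0.07, 0.17 and 0.12. With only the compared groups, 2 were higher in DKO, 1 in TKO, and 0 higher and 0 lower in all tumors (759 of all genes in DKO and 208 in all tumors). Without the filter, 0 were higher in all tumors, and 22 of all genes were called in TKO.

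With the replicate number as a block, 509 genes were called in DKO and 1 in TKO, calls of the 53 genes stayed at 1 higher and 1 lower in DKO, and Mcm6 turned to -0.01 between the tumor genotypes. Deviations from the group means correlated over 0.1 in 5 of 12 same-numbered pairs (-0.174 to 0.37, median 0.0224) and in 10 of 36 others (-0.351 to 0.322, median -0.0612), and a library's best match in another group had its number in 8 of 24 cases, so the numbers were not taken to pair the samples. Library codes in the labels share a letter in 6 pairs between groups (-0.234 to 0.235), with no meaning given.

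Leaving out each library in turn gave 0 to 1 higher and 0 to 1 lower genes in DKO (0 to 651 of all genes, median of the 53 genes 0.23 to 0.7), 0 to 3 and 0 to 0 in TKO (0 to 231, 0.35 to 1.06), 0 to 4 and 0 to 1 in all tumors (0 to 1019, 0.51 to 0.88), and 0 to 0 between the genotypes (0 to 0, -0.04 to 0.45). The 3 in TKO (Cdt1, Dbf4 and Prim1) and the 4 in all tumors came without TKO 3. The ratio of Cdt1 to Gmnn differed by 0.21 to 0.64 for DKO and 1.02 to 1.25 for TKO against control and by 0.51 to 0.94 between the genotypes, where the smallest exact p of 4 against 3 libraries is 0.0571. Of all 212 fold changes of the 53 genes, 50 took both signs with 1 library left out, among them Rpa2 in DKO (-0.02 to 0.17). Of the 72 named ones, those that changed sign were in TKO against control Cdc6 (-0.4 without TKO 1, to 1.51) and Gmnn (-0.07 without TKO 1 and -0.03 without TKO 4, to 0.23), and in all tumors Rnaseh2a (-0.02 without TKO 1, to 0.17). Between the genotypes they were Mcm4 (-0.01 without TKO 1, to 0.68), Mcm5 (-0.25 without TKO 1 and -0.15 without DKO 4, to 0.71), Mcm6 (-0.33 without TKO 1 and -0.09 without DKO 4, to 0.62), and, without DKO 2, Cdc6 (0.32, from -1.83), Ticrr (0.06, from -1.68) and Clspn (0.4, from -1.69). The cause was not tested. A covariate for sex-linked genes could not be fitted, since all 12 libraries were alike in it. Each had the pattern of a male, with Xist at 0.071 to 0.46 CPM and Y-linked genes summed at 92.3 to 155.6 CPM.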
